A study of Mus musculus with 6 samples.

Results

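The genes described here are the Lin28, Igf2bp and Hmga timing genes of early progenitors, which are known as targets of the microRNA let-7: Lin28a, Lin28b, Igf2bp1, Igf2bp2, Igf2bp3, Hmga1, Hmga2 and Trim71. They were chosen by gene symbol, and all 8 were found among the 17920 genes of the expression table. Of these, 6 had enough reads to be tested, whereas Lin28a and Trim71 were too low. The mRNA was sequenced from cells labelled as mouse cortex of embryonic stage E13.5, in 3 WT libraries and 3 libraries with knockdown (KD) of Ybx1, a reader of 5-methylcytosine in mRNA. According to the methods of the study, the cells were cultured from the cortex, infected with a lentivirus carrying a short hairpin RNA against Ybx1 or a control hairpin, and selected with puromycin, to which the virus confers resistance. WT therefore stands for cultured cells that also received a virus and puromycin. The series text speaks of a deletion instead, and which hairpin the KD libraries carried is not given in the sources used here. The cells were a mixture, so fewer cells of a type and less RNA per cell cannot be told apart.

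In many animals these genes belong to a circuit that sets the timing of development. The RNA-binding proteins Lin28a and Lin28b bind the precursor of let-7 and block its maturation, and mature let-7 in turn represses mRNAs that carry its seed match, those of Lin28 among them. Igf2bp1, Igf2bp2 and Igf2bp3 encode proteins that bind and stabilise mRNAs, Hmga1 and Hmga2 encode small chromatin proteins that bind AT-rich DNA, and Trim71 encodes an RNA-binding ubiquitin ligase. In the cortex, several of these genes are known to be high in early neural progenitors and to decline as neurogenesis proceeds. The comparison of KD with WT asks whether their transcripts moved when Ybx1 was reduced.

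The link between the genes is the let-7 seed. The 9 mature mouse microRNAs of the family in RefSeq (GRCm38.p6) share 1 seed, bases 2 to 8, and come from 11 hairpins. The letters GGAG, which Lin28 proteins are known to recognise, occur somewhere in 8 of these hairpins. Their place in the hairpin was not examined, and the mature let-7e holds GGAG too. A few of them are shown, 5′ to 3′ with the seed in capitals, because this seed defines the matches counted below.
mmu-let-7a-5p: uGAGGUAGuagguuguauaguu
mmu-let-7b-5p: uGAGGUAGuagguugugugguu
mmu-let-7d-5p: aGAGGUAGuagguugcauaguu
mmu-let-7i-5p: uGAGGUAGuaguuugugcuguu
mmu-miR-98-5p: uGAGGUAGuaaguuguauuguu
The mature microRNAs differed outside the seed and were not measured by these mRNA libraries.

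Each of the 8 genes held at least 1 match to the seed, CTACCTC, in its annotated 3′ untranslated region (UTR; GENCODE M21, GRCm38, sense strand, longest 3′ UTR of each gene). There were 21 matches, with 4 each in Lin28b, Igf2bp1, Hmga2 and Trim71, 2 in Lin28a and 1 each in Igf2bp2, Igf2bp3 and Hmga1. The longer match CTACCTCA, which contains the shorter one, was held by 7 genes, all but Hmga1. Of the 20979 genes with a 3′ UTR, 8.96% held the shorter match, 3.02% the longer match and 0.153% at least 3 matches. The 3′ UTRs of the 8 genes ran from 1183 bases in Hmga1 to 6337 in Igf2bp1, and among the 9033 genes with a 3′ UTR of at least 1183 bases 16.1% held the shorter match. The genes were chosen as let-7 targets, so these counts describe them and are not a result about them. A match gives letters only and does not show that let-7 acts there.

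One match of each gene is given with 23 bases of its 3′ UTR, so that the shared letters can be seen, with the match in capitals. The window of Lin28a is chr4:134005189-134005211, of Lin28b chr10:45381022-45381044, of Igf2bp1 chr11:95961778-95961800, of Igf2bp2 chr16:22059473-22059495, of Igf2bp3 chr6:49086787-49086809, of Hmga2 chr10:120364224-120364246 and of Trim71 chr9:114512472-114512494, all on the minus strand. The window of Hmga1 is chr17:27563277-27563299 on the plus strand.
Lin28a: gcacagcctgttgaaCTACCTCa
Lin28b: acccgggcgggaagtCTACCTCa
Igf2bp1: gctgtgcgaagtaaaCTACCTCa
Igf2bp2: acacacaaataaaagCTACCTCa
Igf2bp3: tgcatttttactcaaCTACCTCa
Hmga1: tcctctgttcacaaaCTACCTCt
Hmga2: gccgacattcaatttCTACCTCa
Trim71: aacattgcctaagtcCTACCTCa
In Lin28b and Hmga2 the match shown lies near the start of the 3′ UTR, 36 and 58 bases in. In Trim71, the last 2 matches stand close together, at 3591 and 3617 bases of a 3′ UTR of 5512.

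The libraries held between 16294635 and 16497505 estimated counts. Ybx1 fell from 629 ± 21.0 to 116 ± 36.8 CPM (counts scaled to a common library size by TMM; mean ± SD, n = 3 libraries per group), with a log2 change of -2.43 (SE 0.18) and an adjusted P of 1.8e-04. KD kept 18.5% of the WT level. Adjusted P values are those of the quasi-likelihood test in edgeR, corrected by Benjamini-Hochberg over 13669 genes, with a threshold of 0.05. Same-numbered WT and KD libraries deviated together, with correlations across genes of 0.45, 0.38 and 0.25, so values are also given by pair. Both replicate 2 libraries stood apart in Y-linked transcripts: the counts of Ddx3y, Eif2s3y, Kdm5d and Uty summed to 14.1 and 36 there, against 1218 to 1899 in the others.

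The levels of the members differed widely in TPM, a unit that divides by transcript length and sums to the same total in each library. Hmga1 was far above the rest, with a mean of 261 TPM over the 6 libraries, which placed it at percentile 96.8 of the listed genes. Igf2bp3 (16.3 TPM) and Igf2bp2 (16.2 TPM) followed near the middle of the table, then Lin28b (6.87 TPM) and Igf2bp1 (2.63 TPM). Hmga2 (0.427 TPM), Trim71 (0.217 TPM) and Lin28a (0.0783 TPM) lay at percentiles 21.7, 17.6 and 11.1. Only the neighbours Igf2bp3 and Igf2bp2 overlapped in TPM in this order, and their ratio ran from 0.829 to 1.09 over the libraries. The last 3 ranks rest on few counts. Each family was thus mostly 1 or 2 genes at the transcript level: Hmga1 stood 397 to 785 times above Hmga2 in TPM, and Lin28a reached at most 0.16 TPM where Lin28b had at least 5.77.

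**Figure D1:**
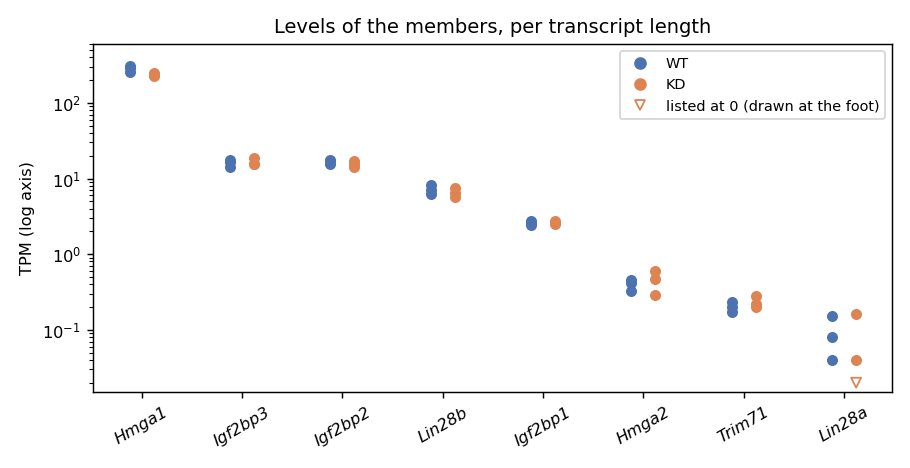
TPM of the 8 genes (log axis) in WT and KD libraries, 1 point per library, ordered by mean TPM; the open triangle marks the KD library in which Lin28a is listed at 0. The levels run from 308 TPM for Hmga1 down to 0 for Lin28a, and WT and KD points of a gene lie close together on this scale.

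Hmga1 fell, and it was the only one of the 6 tested members past the threshold, in either direction. Across all genes tested, 24.0% passed the threshold, 12% with higher and 11.9% with lower levels in KD, so 1 lower gene of 6 is near the background. No member rose with edgeR's quasi-likelihood test, at an adjusted or an unadjusted p of 0.05, nor at an adjusted p of 0.05 with DESeq2, limma-voom or limma-trend. The fold changes of 5 of the 6 were below 0, with a median log2 fold change of -0.10 against -0.001 over all genes tested. Hmga1 alone among the 6 had no overlap between KD and WT, against 41.6% of all genes tested. The sign was the same in all 3 pairs for Lin28b, Igf2bp2 and Hmga1, each lower in KD, against 61.7% of all genes tested with the same sign in all pairs. With the replicate number as a block, Hmga1 was again the only member past the threshold, against 36.6% of all genes.

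**Figure D2:**
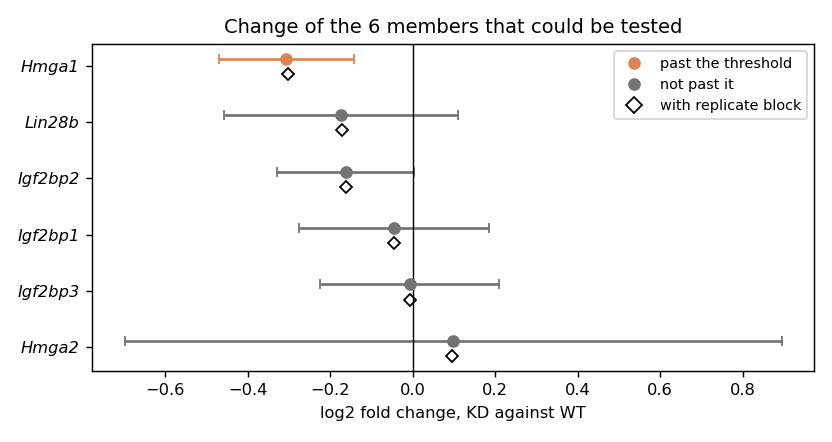
Log2 fold change of KD against WT for the 6 tested members, with 95% confidence intervals from edgeR (circles), and the estimate with the replicate block (diamonds). The interval of Hmga1, at -0.31, lies below 0, those of the other 5 members include 0, and that of Hmga2 is the widest.

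Of the Lin28 pair, Lin28b carried nearly all transcripts. Lin28b (Entrez Gene 380669) had estimated counts of 403, 341 and 296 in WT, in the order of the replicate numbers, and of 353, 309 and 274 in KD. The groups overlapped, since WT replicate 3 lay below KD replicates 1 and 2, but within each pair KD was the lower. Its mean level was 21.3 ± 3.02 CPM in WT and 18.9 ± 2.31 CPM in KD, and the log2 fold change was -0.17 (SE 0.13, 95% confidence interval -0.46 to 0.11, adjusted P = 0.343). The pairs gave -0.21, -0.16 and -0.15, and with the replicate block the SE was 0.07 and the adjusted P 0.0854, still above the threshold. The interval without the block leaves room for a fall of 27.2% or a rise of 7.84%.

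Lin28a (Entrez Gene 83557), the paralog known from pluripotent cells, was at the edge of detection. It had 4, 1 and 2 counts in WT and 1, 4 and 0 in KD, or 0.15, 0.04 and 0.08 TPM and 0.04, 0.16 and 0 TPM. No group was the higher one in these values. The sums of 7 (95% Poisson interval 2.81 to 14.4) and 5 (1.62 to 11.7) gave a ratio of 0.714 of KD over WT, with an interval of 0.179 to 2.61 that covers counting error only. The library at 0 allows up to 3 counts. A difference in Lin28a was not detectable at this depth. Of 8 pluripotency markers, 4 were listed in the table and 2 passed the filter on low counts. The summed level of the 4 was 3.43 to 4.03 TPM in WT and 4.18 to 4.52 TPM in KD. Klf4 was the largest part, at 1.80 to 2.37 TPM in WT and 2.99 to 3.27 TPM in KD. Esrrb, the other one tested, was at 0.99 to 1.22 TPM in WT and 0.68 to 1.18 TPM in KD. Neither passed the threshold without the replicate block (adjusted P = 0.0633 and 0.462), and with it 1 marker rose.

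The Igf2bp family was carried by Igf2bp2 and Igf2bp3. In WT, Igf2bp1, Igf2bp2 and Igf2bp3 took 7.40% ± 0.572, 47.4% ± 2.54 and 45.2% ± 3.12 of the summed TPM of the family (SD, n = 3), and in KD 7.59% ± 0.770, 44.8% ± 0.670 and 47.6% ± 1.17. The family sum was 35.5 ± 1.85 TPM in WT and 34.8 ± 2.76 TPM in KD, a difference smaller than the SD of either group. These shares and sums were not tested.

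Igf2bp2 (Entrez Gene 319765) had the smallest P value of the family. Its estimated counts were 523, 468 and 496 in WT and 488, 438 and 424 in KD. Only KD replicate 1 reached into the range of the WT libraries. The level was 30.5 ± 1.47 CPM in WT and 27.3 ± 1.87 CPM in KD, and the log2 fold change was -0.16 (SE 0.07, interval -0.33 to 0.004, adjusted P = 0.140). The pairs gave -0.11, -0.11 and -0.27, and the adjusted P with the replicate block was 0.0726.

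Igf2bp1 and Igf2bp3 lay close to no change. Igf2bp1 (Entrez Gene 140486) had 181, 161 and 178 counts in WT and 165, 175 and 172 in KD. All KD libraries of Igf2bp1 lay within or just below the WT range in CPM, and the log2 fold change was -0.05 (SE 0.10, interval -0.28 to 0.19, adjusted P = 0.781). Igf2bp3 (Entrez Gene 140488) had 579, 542 and 455 counts in WT and 590, 495 and 508 in KD. Its highest library was a KD library and its lowest a WT library, and the log2 fold change was -0.01 (SE 0.10, interval -0.22 to 0.21, adjusted P = 0.964). The sign of Igf2bp3 turned positive with total count scaling, on TPM, and when WT replicate 1 or 2, KD replicate 2 or 3 or both replicate 2 libraries (the second pair) were left out. The intervals leave room for a fall of up to 17.4% or a rise of up to 13.7% in Igf2bp1, and a fall of up to 14.4% or a rise of up to 15.7% in Igf2bp3.

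Hmga1 (Entrez Gene 15361), which encodes an architectural protein of chromatin, was the most abundant member and the one that fell. It had 3659, 3377 and 2934 estimated counts in WT and 2882, 2638 and 2664 in KD. The groups did not overlap, KD being lower throughout, and WT replicate 3 was the nearest to KD. In CPM, Hmga1 fell from 204 ± 20.0 to 165 ± 6.95, with a log2 fold change of -0.31 (SE 0.07, interval -0.47 to -0.14, adjusted P = 0.0168), which left 80.8% of the WT level. The pairs gave -0.36, -0.37 and -0.18, and with the replicate block the log2 fold change was -0.30 (adjusted P = 3.8e-04). The call was lost without WT replicate 2 (adjusted P = 0.0664), KD replicate 2 (0.0708) or KD replicate 3 (0.0522), and without the second pair (0.194), with log2 fold changes from -0.29 to -0.27 in these fits. Some counts of Hmga1 were fractional, while its sums with Hmga1b, a near-identical copy, were whole in every library. Hmga1b took at most 7.86 counts in a library, and the fold change of both together was -0.31 (adjusted P = 0.0173).

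Hmga2 (Entrez Gene 15364), known as a factor of young stem cells, was barely above the filter. It had 12, 13 and 9 counts in WT and 13, 16 and 8 in KD, or 0.697 ± 0.124 and 0.748 ± 0.247 CPM. The lowest and the highest library were both KD libraries. The log2 fold change was 0.10 (SE 0.35, adjusted P = 0.867), and its interval, -0.70 to 0.89, includes a fall of 38.4% and a rise of 85.9%. The sign turned when WT replicate 3 (-0.033), KD replicate 2 (-0.14) or the whole second pair (-0.026) was left out, so Hmga2 gives no direction at this depth.

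Trim71 (Entrez Gene 636931) did not pass the filter. It had 8, 7 and 9 counts in WT and 8, 11 and 9 in KD, so all but 1 of the KD libraries lay within the WT range. The sums were 24 and 28, a ratio of 1.17 with an interval for counting error of 0.652 to 2.10. With no filter on low counts, edgeR gave adjusted P values of 0.789 for Lin28a and 0.768 for Trim71.

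**Figure D3:**
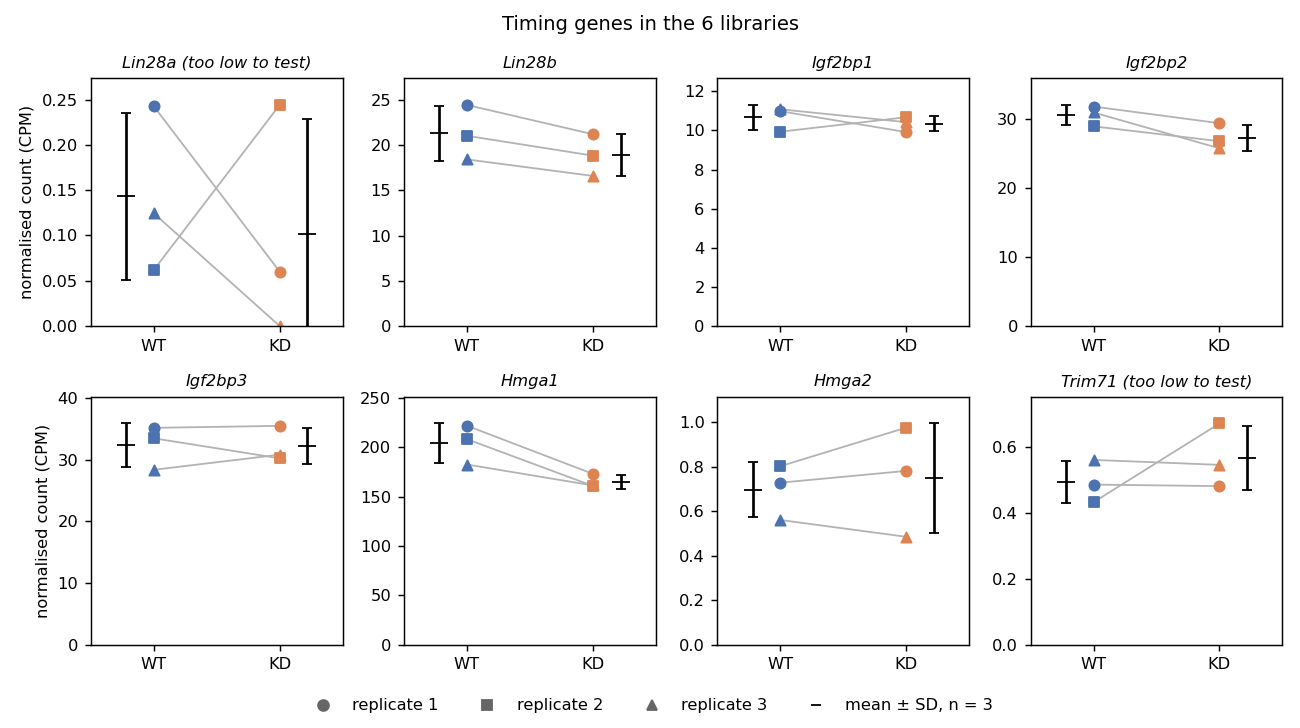
Normalised counts (CPM, linear axes from 0) of the 8 genes in each library, with grey lines between same-numbered WT and KD libraries and mean ± SD (n = 3) in black; the SD bar of Lin28a in KD is cut at 0. For Hmga1 the KD libraries, 161 to 173 CPM, lie below the WT libraries, 183 to 222 CPM, whereas the groups overlap for the other 7 genes.

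The order of the replicates within each group is given as a description. Replicate 1 was the highest library of its group for 4 of the 6 tested members in WT and for 4 in KD, and replicate 3 was the lowest for 4 in WT and 3 in KD. Over all genes tested, replicate 1 was the highest for 32.8% in WT and 36.0% in KD, and replicate 3 the lowest for 36.3% and 34.0%. With 6 members, nothing is read from the difference. Lin28b had this order in both groups, at 24.5, 21.0 and 18.4 CPM in WT and 21.2, 18.9 and 16.6 CPM in KD. The summed level of 8 interneuron markers had the same order, at 6149, 4408 and 3423 TPM in WT and 4398, 3600 and 2703 TPM in KD. Sst made up most of it, at 5449, 3854 and 2950 TPM in WT and 3614, 2991 and 2194 TPM in KD. Dlx1 and Dlx2 in WT and Dlx6 in KD did not have this order, whereas the other markers did. The part of these markers in the level of Lin28b was not tested.

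Over the 6 libraries, log2 CPM of Lin28b and Hmga1 had a Pearson r of 0.81, Lin28b and Igf2bp3 0.78, Igf2bp2 and Hmga1 0.77, and Lin28b and Igf2bp2 0.74. Igf2bp1 and Igf2bp3 ran in opposite directions, with r of -0.52. These values are descriptive, since the 6 libraries share 2 groups and 3 replicate numbers. Among 11434 genes with a mean of at least 5 CPM, the patterns most like Lin28b were those of Slc32a1 (r 0.99), which encodes the vesicular transporter of GABA, and Kif2a (0.99), a microtubule-depolymerising kinesin. The closest to Igf2bp1 were Daam1 (0.99), a formin, and Zfp719 (0.96), a zinc finger gene. Igf2bp2 was closest to Zfp937 (0.996) and Pnmal2 (0.99), and Igf2bp3 to Cnnm2 (0.99) and Pmpcb (0.98), a subunit of the mitochondrial processing peptidase. Hmga1 was closest to Galntl6 (0.998) and Nfe2l1 (0.99), a transcription factor of proteasome genes. Both of these fell, by 0.65 (adjusted P = 0.0162) and 0.26 (adjusted P = 0.0195) on the log2 scale. They were picked for a pattern like that of Hmga1, which was lower in KD, so their fall follows from the choice. The closest to Hmga2 were Taf1b (0.99) and Commd7 (0.98). These genes were picked as the highest of many, which alone makes the values high.

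Genes that make and use let-7 were called about as often as all genes tested (24.0%). Of 18 genes for let-7 processing and silencing, 4 rose, 1 fell and 13 did not pass the threshold, with a median log2 fold change of 0.01. Tut7 and Tut4, the uridylyl transferases that work with Lin28 on the let-7 precursor, both rose. Tut7 went from 59.6 ± 0.870 to 83.5 ± 2.86 CPM (0.49, adjusted P = 6.5e-04), and Tut4 from 93.4 ± 3.39 to 114 ± 7.47 CPM (0.29, adjusted P = 0.0112). Ago1, an Argonaute protein gene with fractional counts, also rose (0.27, adjusted P = 0.00746), and so did Dicer1, which cleaves the precursor (0.23, adjusted P = 0.0175). Xpo5, the exporter of precursors, fell by 0.23 (adjusted P = 0.0275), a call that was lost with limma-trend on log2(TPM + 1) (adjusted P = 0.118). Drosha was at 0.003 (adjusted P = 0.969) and Dis3l2, the nuclease that degrades uridylated precursors, at 0.002 (adjusted P = 0.981).

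Of 26 other genes known as let-7 targets, 8 rose and 0 fell past the threshold of edgeR's quasi-likelihood test. Over all genes tested, 24.0% passed it, 12% with higher and 11.9% with lower levels in KD. The median log2 fold change of the 26 genes was -0.02. At an unadjusted p of 0.05, 8 were higher and 5 lower in KD. Past the adjusted threshold, 6 rose and 1 fell with DESeq2, and 8 rose and 0 fell with both limma-voom and limma-trend. With upper quartile scaling 7 rose and 0 fell. With the replicate block 9 rose and 3 fell, against 36.6% called over all genes with the block. Cdk6, a kinase of the G1 phase, rose most, from 20.8 ± 3.01 to 43.5 ± 11.8 CPM (1.06, adjusted P = 0.00452). Tgfbr1, a TGF-beta receptor, rose by 0.78 (adjusted P = 8.7e-04), the progenitor factor gene Nr2e1 by 0.59 (adjusted P = 0.0103) and the helicase gene Dna2 by 0.50 (adjusted P = 0.0343). The seed match was held by 17 of the 26 genes and by 5 of the 8 that rose, against 10.6% of tested genes with a 3′ UTR. The 26 genes were listed as let-7 targets, so this count describes them. Cdk6 and Nr2e1 did not hold the match in the 3′ UTR that was read.

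Over all 13242 tested genes with a 3′ UTR, the median fold change differed little with the number of matches. The median log2 fold change was 0.0008 for 11832 genes with no match, -0.01 for 1235 genes with 1 match, -0.02 for 150 genes with 2 and -0.02 for 25 genes with 3 or more. Genes with more matches had longer 3′ UTRs, with medians of 1136, 2293, 3606 and 4466 bases. Hmga1, at -0.31, was below the lower quartile of the genes with 1 match (-0.17), Lin28b, at -0.17, was below that of the genes with 3 or more (-0.07), and the other 4 tested members lay within the quartiles of their groups.

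**Figure D4:**
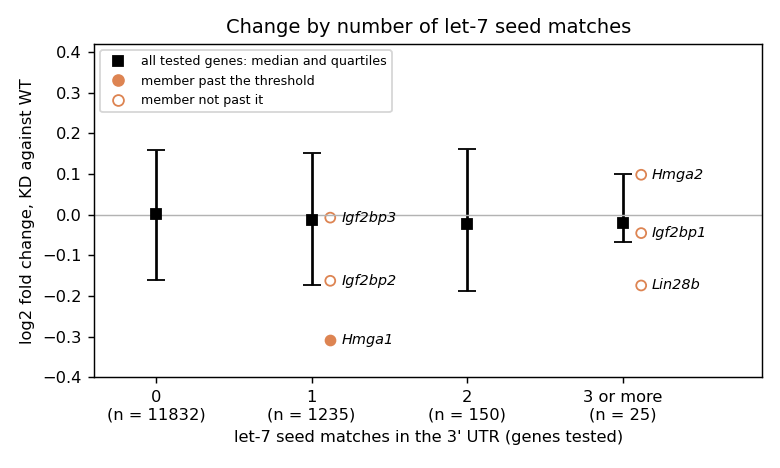
Log2 fold change of KD against WT by the number of let-7 seed matches in the 3′ UTR, with the median and quartiles of all tested genes (black) and the 6 tested members (orange, filled where past the threshold). The 4 medians lie between -0.02 and 0.0008, and Hmga1 at -0.31 is the member farthest from its group.

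The Igf axis is the classical partner of the Igf2bp proteins, which were named for binding Igf2 mRNA. Igf2 itself was nearly absent, with 0.07 to 0.11 TPM in WT and 0.10 to 0.30 TPM in KD, and did not pass the filter. Of 17 tested genes of the axis, 1 rose and 2 fell, against 24.0% called over all genes, with a median log2 fold change of -0.01. With the replicate block 4 rose and 5 fell, against 36.6% called over all genes. The receptor gene Igf1r rose from 83.6 ± 12.8 to 122 ± 3.47 CPM (0.55, adjusted P = 0.00484), the binding protein gene Igfbp2 fell by 0.28 (adjusted P = 0.0135), and the adaptor gene Irs2 fell by 0.24 (adjusted P = 0.00990).

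Hmga2 is known to act on stem cell renewal through the Ink4 genes. Of 7 genes of that axis, 1 rose and 1 fell, against 24.0% called over all genes, with a median log2 fold change of 0.03. With the replicate block 1 rose and 2 fell, against 36.6% called over all genes. Cdkn2d, a CDK inhibitor gene, fell by 0.31 (adjusted P = 0.0214), and the Polycomb gene Bmi1 rose by 0.20 (adjusted P = 0.0254), a call that was lost with DESeq2 (adjusted P = 0.0566). The Ink4 locus itself was low, with Cdkn2a at 0.658 ± 0.102 CPM in WT and 0.707 ± 0.184 in KD (0.10, adjusted P = 0.852) and Cdkn2b at 0.800 ± 0.164 and 0.990 ± 0.181 (0.30, adjusted P = 0.493).

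Most genes of late progenitors and gliogenesis did not pass the threshold in the fit without the replicate block. This stage follows the decline of the timing genes. Of 16 tested, against 24.0% called over all genes, 2 rose and 1 fell, with a median log2 fold change of 0.07. With the replicate block 6 rose and 3 fell, against 36.6% called over all genes. Tnc, an extracellular matrix gene, rose by 0.61 (adjusted P = 0.00530), the gliogenic factor gene Nfib rose by 0.47 (adjusted P = 0.0475; 0.0530 with upper quartile scaling and 0.0889 with DESeq2), and the oligodendrocyte lineage factor gene Olig1 fell by 0.54 (adjusted P = 0.0105). Gfap was at -0.32 (adjusted P = 0.288).

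**Figure D5:**
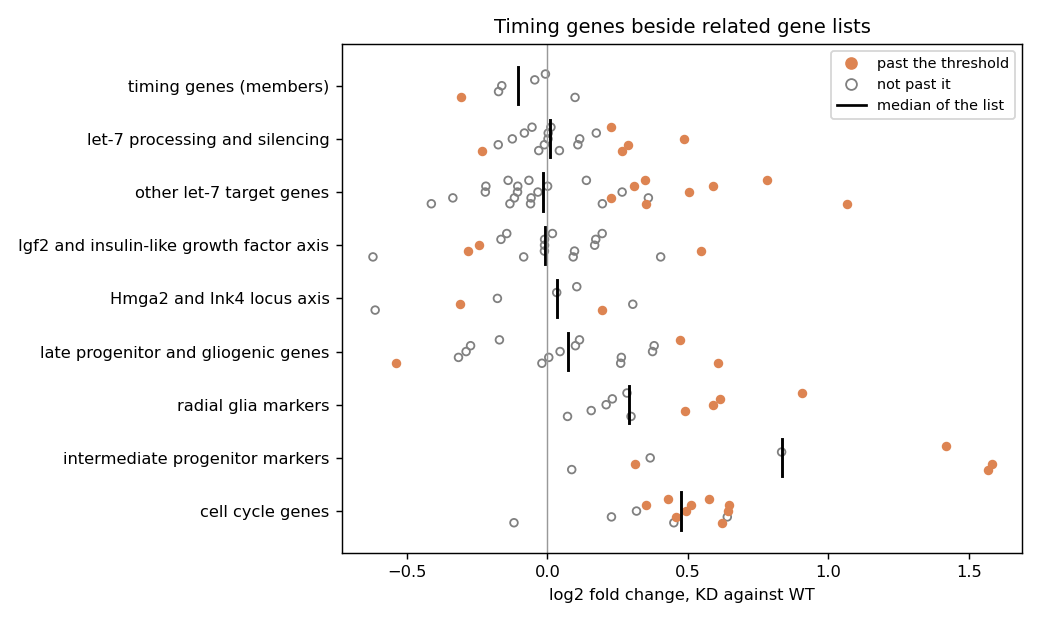
Log2 fold changes of KD against WT for the 6 tested members and for the tested genes of 8 lists, 1 point per gene, filled where past the threshold, with the median of each list as a bar. The median of the members lies at -0.10, and those of the intermediate progenitor markers (0.83), the cell cycle genes (0.48) and the radial glia markers (0.29) lie above 0.

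The summed levels of markers of progenitors and cycling cells lay higher in every KD library than in any WT library, while the summed neuron markers overlapped between the groups. Shares of cells were not measured. Over all genes tested, 24.0% passed the threshold, 12% with higher and 11.9% with lower levels in KD, and 36.6% with the replicate block. Taken singly, 41.6% of all genes tested had no overlap between KD and WT in CPM. Of 10 radial glia markers, 4 rose (7 with the replicate block), and their sum was 557 to 597 TPM in WT and 617 to 838 TPM in KD. Vim was the largest part of that sum, at 323 to 364 TPM in WT and 353 to 492 TPM in KD. Without the block Vim did not pass the threshold (0.21, adjusted P = 0.195). Of 7 tested intermediate progenitor markers, 4 rose (6 with the replicate block), among them Neurog2 (1.58, adjusted P = 9.0e-04) and Eomes (1.57, adjusted P = 0.00813). The sums of this list were 175 to 196 TPM and 247 to 285 TPM. Elavl4 was their largest part, at 104 to 109 TPM in WT and 111 to 125 TPM in KD. Without the block Elavl4 did not pass the threshold (0.09, adjusted P = 0.235). Of 14 cell cycle genes, 9 rose (12 with the replicate block), with sums of 766 to 805 TPM and 1011 to 1198 TPM. In these 3 lists 0 genes fell with edgeR, DESeq2, limma-voom or limma-trend, and 0 were lower at an unadjusted p of 0.05 in edgeR. Of 10 neuron markers, 2 rose and 2 fell (5 and 2 with the replicate block), with sums of 4841 to 5527 TPM and 4778 to 5525 TPM. Of 8 interneuron markers, Dlx2 alone passed the threshold (1.23, adjusted P = 9.6e-04), and with the replicate block 2 rose and 2 fell. The part of these markers in the levels of Hmga1 and the other members was not tested.

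Markers of cells from outside the neural lineage were low. The sums of 10 microglia and macrophage markers were 5.42 to 10.7 TPM in WT and 5.44 to 8.35 TPM in KD, and those of 8 endothelial markers 1.77 to 2.67 and 1.5 to 2.70 TPM. Of the mesenchymal and meningeal markers, 10 were listed, with sums of 7.58 to 12.1 TPM and 10.2 to 12 TPM, and Pdgfrb rose (0.72, adjusted P = 0.0318). The neural markers of the labelled tissue were present, including Sox2 at 84.6 to 131 TPM and Tubb3 at 1601 to 2022 TPM.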

How the data were processed

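RNA-seq of 3 WT and 3 KD libraries was analysed from the deposited table. The submitters' processing notes name HISAT2 2.2.1, Bowtie2 2.4.5 and RSEM 1.3.1, and GRCm38. The estimated counts deposited by the authors carry decimals (89.3% to 89.9% of values per library are whole, within 0.005) where reads are divided between similar genes. The deposited TPM values were scaled by the authors for transcript length. The 6 FPKM and 6 average columns were not used. Columns named Ctrl were taken as the WT libraries with the same number.

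After rounding, KD was compared with WT in edgeR 4.0.16 (R 4.3.3; TMM, filterByExpr with a minimum count of 10, quasi-likelihood F-test, Benjamini-Hochberg adjustment). Each SE was derived from the F statistic, as the size of the log2 value over the root of F. The test was checked on simulated counts without a replicate effect, so that check does not cover the pairing described below. The replicates are called independent experiments in the methods of the study, and no replicate pair agreed within sampling noise (chi-square of 4.57 to 9.05 per degree of freedom). The labels do not say what a replicate number marks. Deviations from group means correlated at 0.45, 0.38 and 0.25 for equal numbers and -0.31 to -0.02 otherwise, so the numbers pair the libraries.

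The members and gene lists were chosen with earlier results of these data known. Genes named are the members, Ybx1, up to 4 called genes per list with the largest changes, genes a result turns on (Dicer1, Drosha, Dis3l2, Igf2, Cdkn2a, Cdkn2b, Gfap, Sox2, Tubb3 and the Y-linked genes were picked after values were seen), and the 2 genes most correlated with each member. Vim, Elavl4, Sst, Dlx1, Dlx6, Klf4 and Esrrb were also picked after values were seen. Seed matches were counted on the sense strand in the longest annotated 3′ UTR per gene, which matched 96.9% of tested genes. Alternatives used limma 3.58.1 and DESeq2 1.42.0.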

Additional observations from a re-analysis of the deposited data

How the results depend on the processing

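Hmga1 stayed below 0 in all 18 alternatives and past the threshold in 14. Without 1 replicate, its log2 fold change ran from -0.38 to -0.24, and without the second pair (both replicate 2 libraries), an alternative chosen after seeing the data, it was -0.27. The number of members past the threshold and lower in KD was then 0, and 0 to 1 without 1 replicate. Lin28b and Igf2bp2 were below 0 in all 17 alternatives and passed the threshold in none. Igf2bp1 turned to 0.0023 on log2(TPM + 1). Igf2bp3 turned to 0.015 with total count scaling, 0.043 on log2(TPM + 1) and 0.061 without the second pair, and ran from -0.093 to 0.058 without 1 replicate. Hmga2 was -0.026 without the second pair and ran from -0.14 to 0.33 without 1 replicate. The filter at a mean of 1 CPM removed Hmga2, whose mean was 0.697 CPM in WT and 0.748 CPM in KD. Over all genes tested, the median log2 fold change was 0.046 on log2(TPM + 1) and 0.021 with total count scaling, against -0.001 in the edgeR fit. The cause of the turns in sign was not tested. Genes past the threshold numbered 3277, and 5009 with the replicate block, 4973 with the replicate block in limma-voom (added later), 1576 to 3195 without 1 replicate (2175 without KD replicate 1, 1733 without KD replicate 2, 1576 without WT replicate 2), and 228 without the second pair. The replicate block changed no call of a member, nor of Drosha, Dis3l2, Cdkn2a, Cdkn2b or Gfap. On log2(TPM + 1), 65.9% of called genes were higher in KD, against 50.2% in the edgeR fit, and other scalings gave 43.0% to 57.9%. The difference between Hmga1 and Lin28a was 7.92 on log2(TPM + 1) and 10.59 with a pseudocount of 0.1. The 21 seed matches became 13 with the longer match. Depth limits Lin28a, Trim71 and Hmga2, with at most 16 counts in a library. Intervals on sums cover counting error only.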
